A study of Mus musculus with 18 samples.

Results

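The ribosome biogenesis factors described here are 41 mouse genes that encode nucleolar and ribosome assembly proteins. They were taken as a fixed list and sorted into 6 roles: RNA polymerase I and its cofactors, the box C/D and box H/ACA small nucleolar ribonucleoproteins (snoRNPs), nucleolar chaperones, small subunit (40S) assembly and large subunit (60S) assembly. Affymetrix whole-genome mouse arrays measured 18193 genes through a probe set named for 1 gene only, and 40 of the 41 listed genes were among them. Mrto4 had no such probe set and was not analysed here. Where several probe sets stood for a gene, its brightest set by the mean of the 18 arrays gave the values.

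Male C57BL6 mice of 20 g received an intraperitoneal injection of saline (sham) or of D-(+)-galactosamine HCl (GalN) at 4.5 g/kg. Both organs were collected after perfusion, at 24 h in the saline mice and at 24 h or 48 h in the GalN mice, and RNA came from homogenised tissue. Each of the 6 groups (sham, 24 h GalN and 48 h GalN, in liver and in kidney) had 3 arrays, lettered A, B and C. Sham mice were sampled at 24 h only, and both GalN times were compared with those same sham arrays. The sources can be read as 1 mouse per array or as equal RNA from 3 mice. Arrays are treated here as separate samples, and if they share RNA the p-values measure technical spread only.

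Ribosome assembly begins in the nucleolus, where RNA polymerase I transcribes a long precursor of ribosomal RNA. Box C/D snoRNPs guide methylation of that RNA and box H/ACA snoRNPs guide its pseudouridylation, while large protein complexes fold and cleave it and load the ribosomal proteins. Hepatocytes make plasma proteins in bulk, and ribosome production in the liver is known to increase when hepatocytes grow or prepare to divide. GalN is a liver toxin that hepatocytes convert to uridine-containing sugars, which lowers the uridine nucleotides available for RNA synthesis.

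Signals are log2 gcRMA values, so a difference of 1 is a 2-fold change, and the number of arrays limits the precision. Values are compared between groups for 1 probe set at a time, never between genes. Pairs of groups were tested with limma, a linear model fitted to every gene that passed a filter on low signals, and a gene was called when its Benjamini-Hochberg adjusted p was under 0.05. All 40 measured factors passed that filter in both tissues and lay above the array median in all 18 arrays. Those medians were 2.36 to 2.43, close to the lowest value of 2.21, so passing does not mean a strong signal. For 11 of them at least 1 reading recurred exactly in another array. All folds are those of the group means.

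Liver markers fitted the label: the mean log2 signal of 9 hepatocyte markers was 13.25 to 14.07 in the livers and 7.80 to 8.25 in the kidneys, where Cps1 and Tat lay at the floor. The 8 proximal tubule markers averaged 13.55 to 13.89 in the kidneys and 4.22 to 5.05 in the livers. Array C of liver at 48 h stood apart. Its 3′ to 5′ difference of the actin control probe sets was 2.56, against 1.48 to 1.95 in the other 8 livers, and that of the GAPDH sets was 0.81, against 0.21 to 0.35. It was the lowest of its group for 27 of the 40 factors and below every sham liver for 11, so results on liver at 48 h are given with and without it.

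In liver at 24 h after GalN, 35 of the 40 factors rose against sham and none fell (limma, adjusted p under 0.05), whereas 17.9% of all genes tested rose. The median difference of the 40 factors was 1.79, against 0.0048 over all genes tested. All 40 differences were positive and 32 were at least 2-fold. Among the 35 called, 31 were at least 2-fold and 17 at least 4-fold. In 38 factors every treated liver exceeded every sham liver, as it did for 27.3% of all genes. The array medians over the 40 factors were 7.91 to 7.96 in the sham livers, 10.01 to 10.19 at 24 h and 8.51 to 8.99 at 48 h, without overlap. By rank product analysis, the test that the study's design names, 12 of the 40 were called, all higher and all among the 35, against 4.97% of all genes in either direction. When 1 array at a time was left out, 32 of the 35 calls held in every fit; the other three were Polr1a, Nop10 and Noc2l.

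**Figure D1:**
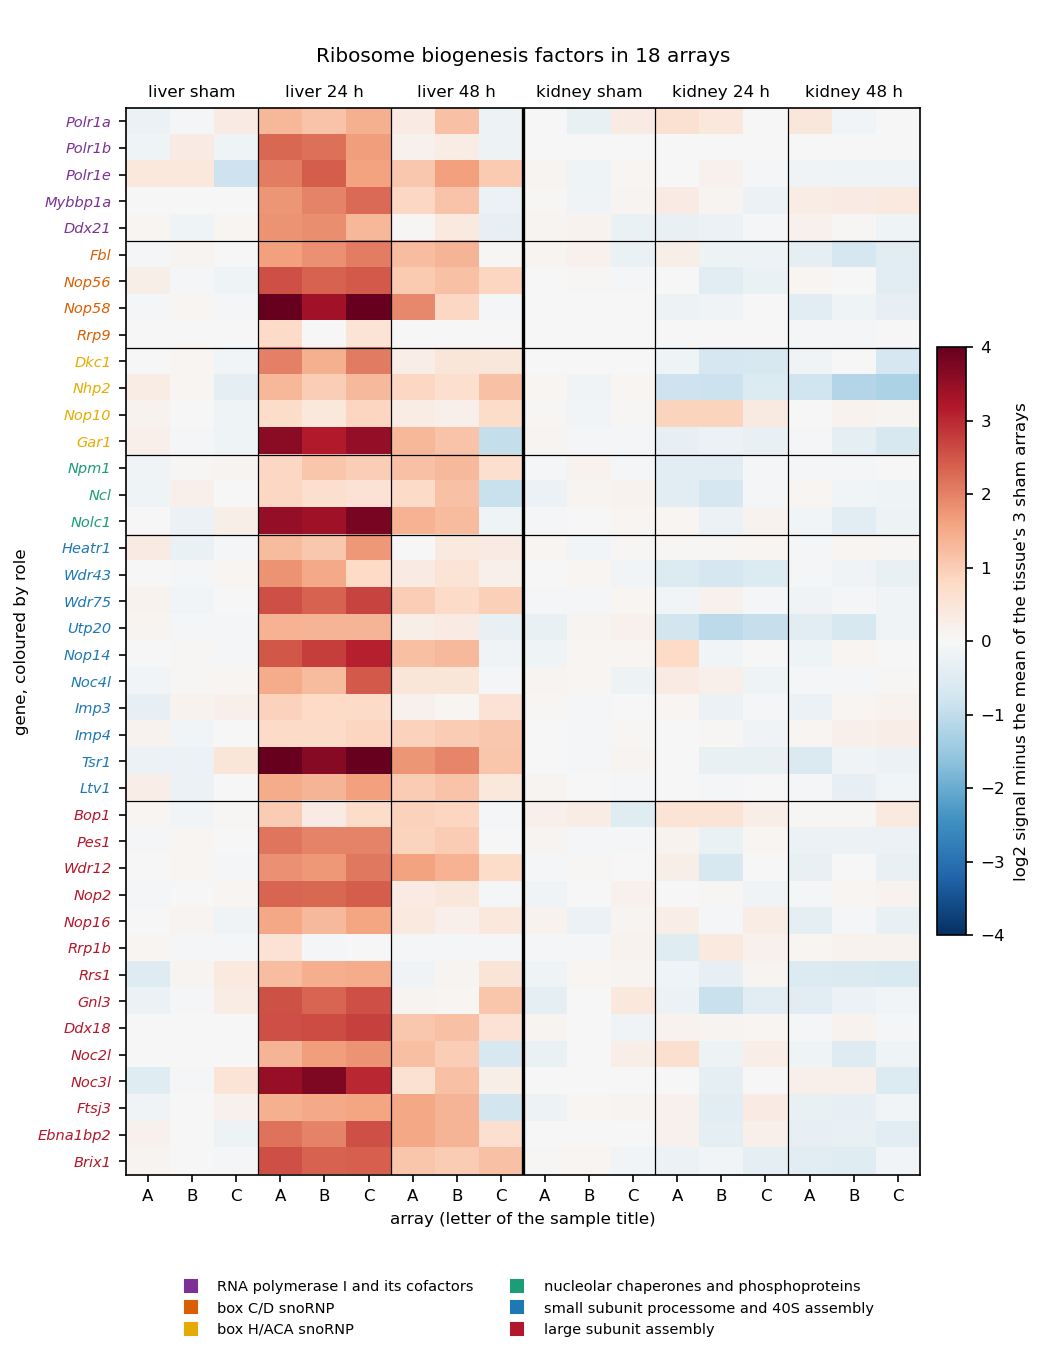
Log2 signal of each factor in each of the 18 arrays, as the difference from the mean of the 3 sham arrays of the same tissue; rows are genes coloured by role, columns are arrays, and the colour scale ends at 4 in either direction. The livers at 24 h are red in nearly all rows, those at 48 h are paler with array C palest in most rows, and the kidneys stay near 0 in most rows.

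Probe sets not used for the main values gave the same direction where they passed a filter on signal in liver. The 40 factors had 45 other sets, of which 33 (for 25 genes) lay above the array median in at least 3 livers. All 33 were higher at 24 h than in sham by their means, with a median difference of 1.87. A set could pass through its 24 h livers alone, as a Noc3l set did, so their shared direction is partly due to the filter. Among the sets left out, a Wdr12 set was lower (−0.11). Several, such as a Ddx18 set, did not differ, and the rest were higher.

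Promoter sequence was available from RefSeq (GRCm38.p6) for 37 of the 41 listed genes, as windows from 250 bases before to 50 after the start of transcription. The letters CACGTG, an E-box that MYC binds together with MAX and that reads the same on both strands, occurred in 8 of the 37 (21.6%, 95% Wilson interval 11.4 to 37.2), in 11.5% of the genes tested in liver, in 12.7% of those that rose at 24 h and in 8.09% of all genes in the table. When the 250 bases before the start alone were searched, the share was 5.41% for the factors, 9.75% for the genes tested in liver and 6.86% for all. So the match lay downstream of the start in 6 of the 8 genes. These 8 stretches, of at most 30 bases, are shown because they are all the members that hold the motif; the E-box is in capitals, and each is written 5′ to 3′ on the gene's own strand.

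Imp4, chr1:34439696-34439725, plus strand: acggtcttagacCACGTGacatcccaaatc

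Nop2, chr6:125131811-125131840, plus strand: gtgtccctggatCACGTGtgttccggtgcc

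Ltv1, chr10:13193092-13193121, minus strand: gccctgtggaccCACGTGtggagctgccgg

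Utp20, chr10:88826765-88826789, minus strand: cggcactaactaCACGTGaggaaaa

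Pes1, chr11:3963965-3963994, plus strand: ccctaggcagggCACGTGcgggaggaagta

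Mybbp1a, chr11:72441355-72441376, plus strand: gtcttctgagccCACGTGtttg

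Tsr1, chr11:74898092-74898121, plus strand: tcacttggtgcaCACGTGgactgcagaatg

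Wdr43, chr17:71616220-71616249, plus strand: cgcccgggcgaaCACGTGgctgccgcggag

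All 8 genes rose in liver at 24 h, by 0.80 (Imp4) to 3.89 (Tsr1) on the log2 scale with a median of 1.75. Among the 28 measured factors with a promoter window and no E-box, 24 rose and the median difference was 1.87. Another pair of motifs was searched on both strands in the same windows. The GC box GGGCGG occurred in 73.0% of the factors (95% Wilson interval 57.0 to 84.6), in 65.9% of the genes tested in liver and in 69.3% of those that rose at 24 h. The ETS core CCGGAAG occurred in 32.4% of the factors (interval 19.6 to 48.5), in 18.9% of the genes tested and in 27.8% of those that rose. In the 250 bases before the start alone, the GC box shares were 64.9% of the factors and 61.3% of the genes tested, and the ETS shares 18.9% (interval 9.48 to 34.2) and 14.7%. These are matches of letters and no measurement of binding.

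RNA polymerase I and its cofactors rose in liver at 24 h for 5 of 5 genes, with a median difference of 2.02. Polr1b encodes the second largest polymerase subunit. Its sham livers read 6.60, 7.11 and 6.61, the 24 h livers 9.06, 8.98 and 8.44, and the 48 h livers 6.93, 7.06 and 6.57. The 24 h livers did not overlap either other group, and the 48 h livers overlapped sham. The 24 h difference was 2.05 (SE 0.24, limma adjusted p = 0.000962), a 4.15-fold change. Of its 18 readings 9 recur, 2 of them in sham livers and all the others in kidneys.

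Mybbp1a, a nucleolar protein that binds the transcription factor MYB and associates with polymerase I, read 9.55, 9.54 and 9.51 in sham, 11.31, 11.53 and 11.80 at 24 h and 10.36, 10.66 and 9.31 at 48 h. Every 24 h liver was higher than every other liver. The 24 h difference was 2.02 (SE 0.33, limma adjusted p = 0.00362), a 4.05-fold change. Polr1a, the largest catalytic subunit, read 5.30, 5.45 and 5.86 in sham, 6.85, 6.68 and 6.95 at 24 h and 5.85, 6.70 and 5.33 at 48 h, a 24 h difference of 1.29 (SE 0.34, limma adjusted p = 0.0240). That call was lost without any 1 of sham A, sham B, or the 24 h livers, and with the mean over its probe sets (0.29, adjusted p = 0.0722), since its other sets read near the floor. Polr1e, a further subunit, and Ddx21, an RNA helicase of ribosomal RNA transcription and processing, rose by 2.03 and 1.66.

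Box C/D snoRNP genes rose for 3 of 4. Nop58, which with Nop56 forms the scaffold of the particle, had the largest difference of the 40 factors. It read 3.00, 3.10 and 3.00 in sham livers, 7.78, 6.40 and 7.10 at 24 h and 4.96, 3.86 and 2.99 at 48 h. The 24 h livers stood far above the rest, and the 48 h livers ran from well above sham to sham level. The 24 h difference was 4.06 (SE 0.52, limma adjusted p = 0.00146), a 16.6-fold change. Its sham livers lay less than 1 above the floor of 2.21 and 2 of their readings recur, so the size of the fold is uncertain.

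Fbl (fibrillarin), the methyltransferase of the particle, read 10.71, 10.92 and 10.77 in sham, 12.43, 12.63 and 12.86 at 24 h and 12.02, 12.16 and 10.85 at 48 h. Its 24 h difference was 1.84 (SE 0.33, limma adjusted p = 0.00546), a 3.58-fold change. At 48 h arrays A and B were still above all sham livers while array C lay within them. Nop56 rose by 2.47, or 5.53-fold. Rrp9, a protein of the U3 snoRNP, read 3.39 in all 3 sham livers and 4.17, 3.39 and 3.95 at 24 h; 15 of its 18 readings recur, and it was not called (0.45, SE 0.18, limma adjusted p = 0.0949).

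Box H/ACA snoRNP genes rose for 4 of 4, over a wide range. Gar1, a core protein of the particle, read 6.49, 6.24 and 6.11 in sham, 9.90, 9.45 and 9.81 at 24 h and 7.62, 7.42 and 5.33 at 48 h. The 24 h livers were all higher than any other liver, and the 48 h livers lay on both sides of sham. Its 24 h difference was 3.44 (SE 0.57, limma adjusted p = 0.00393), a 10.8-fold change.

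Nop10, the smallest core protein, read 11.80, 11.69 and 11.49 in sham and 12.40, 12.09 and 12.52 at 24 h, a difference of 0.68 (SE 0.18, limma adjusted p = 0.0256). It was the smallest called difference, and it was lost when sham B, sham C, 24 h A or 24 h C was left out and with arrays centred on their medians (0.52, adjusted p = 0.121). Nhp2, a core protein that contacts the guide RNA, read 10.59, 10.38 and 9.89 in sham, 11.63, 11.27 and 11.58 at 24 h and 11.12, 10.97 and 11.46 at 48 h. All treated livers exceeded all sham livers, by 1.20 at 24 h (SE 0.22, limma adjusted p = 0.00543). Dkc1 (dyskerin), the pseudouridine synthase, rose by 1.85, or 3.59-fold.

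Among the nucleolar chaperones and phosphoproteins 2 of 3 rose at 24 h. Nolc1, which accompanies snoRNPs in the nucleolus, read 6.75, 6.54 and 6.99 in sham, 10.28, 10.14 and 10.56 at 24 h and 8.15, 8.03 and 6.60 at 48 h. It was 11.9-fold higher at 24 h (3.57, SE 0.40, limma adjusted p = 0.000924), with no overlap. Npm1 (nucleophosmin), a chaperone of histones and ribosomal particles, read 11.95, 12.14 and 12.20 in sham, 12.94, 13.21 and 13.08 at 24 h and 13.26, 13.39 and 12.78 at 48 h. Both times lay above all sham livers and overlapped each other.

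The Npm1 difference was 0.99 at 24 h (SE 0.17, limma adjusted p = 0.00453) and 1.05 at 48 h (SE 0.17, adjusted p = 0.0132). Ncl (nucleolin), an abundant RNA-binding protein of the nucleolus, read 11.23, 11.61 and 11.38 in sham, 12.24, 12.07 and 11.98 at 24 h and 12.17, 12.58 and 10.51 at 48 h. Its 24 h livers were all above sham, but the fit, which shares its spread with the 48 h livers, did not call it (0.69, SE 0.49, limma adjusted p = 0.328). On the 6 arrays of sham and 24 h alone it was called with the same difference (adjusted p = 0.0138).

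Small subunit processome and 40S assembly genes rose for 10 of 10, with a median of 1.43. Tsr1, which acts late in 40S maturation, had the largest difference of this role. It read 6.77, 6.74 and 7.46 in sham, 10.96, 10.62 and 11.04 at 24 h and 8.75, 8.93 and 8.11 at 48 h. The 3 groups did not overlap, with 48 h in between. The 24 h difference was 3.89 (SE 0.28, limma adjusted p = 0.000201), a 14.8-fold change.

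Imp4 and Imp3 belong to the complex that holds the U3 RNA on the precursor, and they had the smallest differences. Imp4 read 7.79, 7.54 and 7.66 in sham, 8.44, 8.42 and 8.52 at 24 h and 8.57, 8.69 and 8.74 at 48 h. Unlike most factors it was no lower at 48 h than at 24 h in any array. The 24 h difference was 0.80 (SE 0.10, limma adjusted p = 0.00139). A second Imp4 probe set had a difference of 1.87 at 24 h but −0.28 at 48 h, and with the mean over its sets the 48 h call was lost (0.53, adjusted p = 0.102). Imp3 read 9.05, 9.52 and 9.61 in sham and 10.31, 10.18 and 10.17 at 24 h, a difference of 0.82 (SE 0.19, limma adjusted p = 0.0151), without overlap.

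Wdr43, Wdr75 and Heatr1 belong to the subcomplex that joins the precursor first. Wdr43 read 8.76, 8.73 and 8.87 in sham, 10.59, 10.29 and 9.59 at 24 h and 9.13, 9.33 and 8.98 at 48 h. Its 24 h livers were highest and its sham livers lowest, with a 24 h difference of 1.37 (SE 0.24, limma adjusted p = 0.00537). Wdr75 rose by 2.54 and Heatr1 by 1.37. Utp20, a very large scaffold protein, read 7.23, 7.09 and 7.07 in sham, 8.51, 8.49 and 8.49 at 24 h and 7.37, 7.46 and 6.84 at 48 h, a 24 h difference of 1.37 (SE 0.17, limma adjusted p = 0.00124). Nop14 (2.78, 6.89-fold), Noc4l (1.74) and Ltv1 (1.49), which act in 40S assembly and export, also rose.

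Large subunit assembly genes rose for 11 of 14, with a median of 1.96. Noc3l, a nucleolar protein of early 60S particles, read 4.91, 5.33 and 5.93 in sham, 8.86, 9.12 and 8.42 at 24 h and 6.01, 6.56 and 5.64 at 48 h. Its 24 h livers were separate from both other groups, which overlapped, and the 24 h difference was 3.41 (SE 0.34, limma adjusted p = 0.000619), a 10.6-fold change. Brix1, needed for processing of the large subunit RNA, had the smallest p of the 40. It read 9.63, 9.51 and 9.43 in sham, 12.11, 11.89 and 11.90 at 24 h and 10.63, 10.53 and 10.68 at 48 h, a 24 h difference of 2.44 (SE 0.10, limma adjusted p = 3.37e-05), with no overlap among the 3 groups.

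Rrs1, which helps to place the 5S particle, read 9.25, 9.88 and 10.15 in sham and 10.99, 11.21 and 11.24 at 24 h, a difference of 1.38 (SE 0.26, limma adjusted p = 0.00652). Pes1 and Wdr12, partners of Bop1 in one complex, rose by 2.03 (4.07-fold) and 1.90. For Pes1, 2 sham liver readings recur, and its other probe set differed by 0.96 at 24 h and −0.46 at 48 h. Ddx18 (an RNA helicase) rose by 2.65, Gnl3 (nucleostemin, a nucleolar GTPase) by 2.47, Nop2 (an RNA methyltransferase) by 2.35 and Ebna1bp2 by 2.25. Noc2l rose by 1.61 and Nop16 by 1.48. The Noc2l call held in 3 of the 9 fits that each leave out 1 liver.

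The other three large subunit genes were not called. Bop1 read 8.09, 7.91 and 8.07 in sham and 9.05, 8.36 and 8.77 at 24 h (0.71, SE 0.29, limma adjusted p = 0.107). Ftsj3, an RNA methyltransferase of the large subunit precursor, read 7.84, 7.97 and 8.16 in sham, 9.42, 9.51 and 9.58 at 24 h and 9.55, 9.36 and 7.27 at 48 h (24 h difference 1.52, SE 0.55, limma adjusted p = 0.0762). For both, all 24 h livers lay above all sham livers, and both were called at 24 h once array C of liver at 48 h was left out.

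Rrp1b, a nucleolar protein related to yeast Rrp1, read 5.97, 5.83 and 5.83 in sham and 6.45, 5.83 and 5.90 at 24 h (0.18, SE 0.17, limma adjusted p = 0.461). Its probe sets disagreed: another set of the gene differed by 3.07 at 24 h, and the mean over its sets was called (1.22, adjusted p = 0.00271). The used set had 8 recurring readings among 18.

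**Figure D2:**
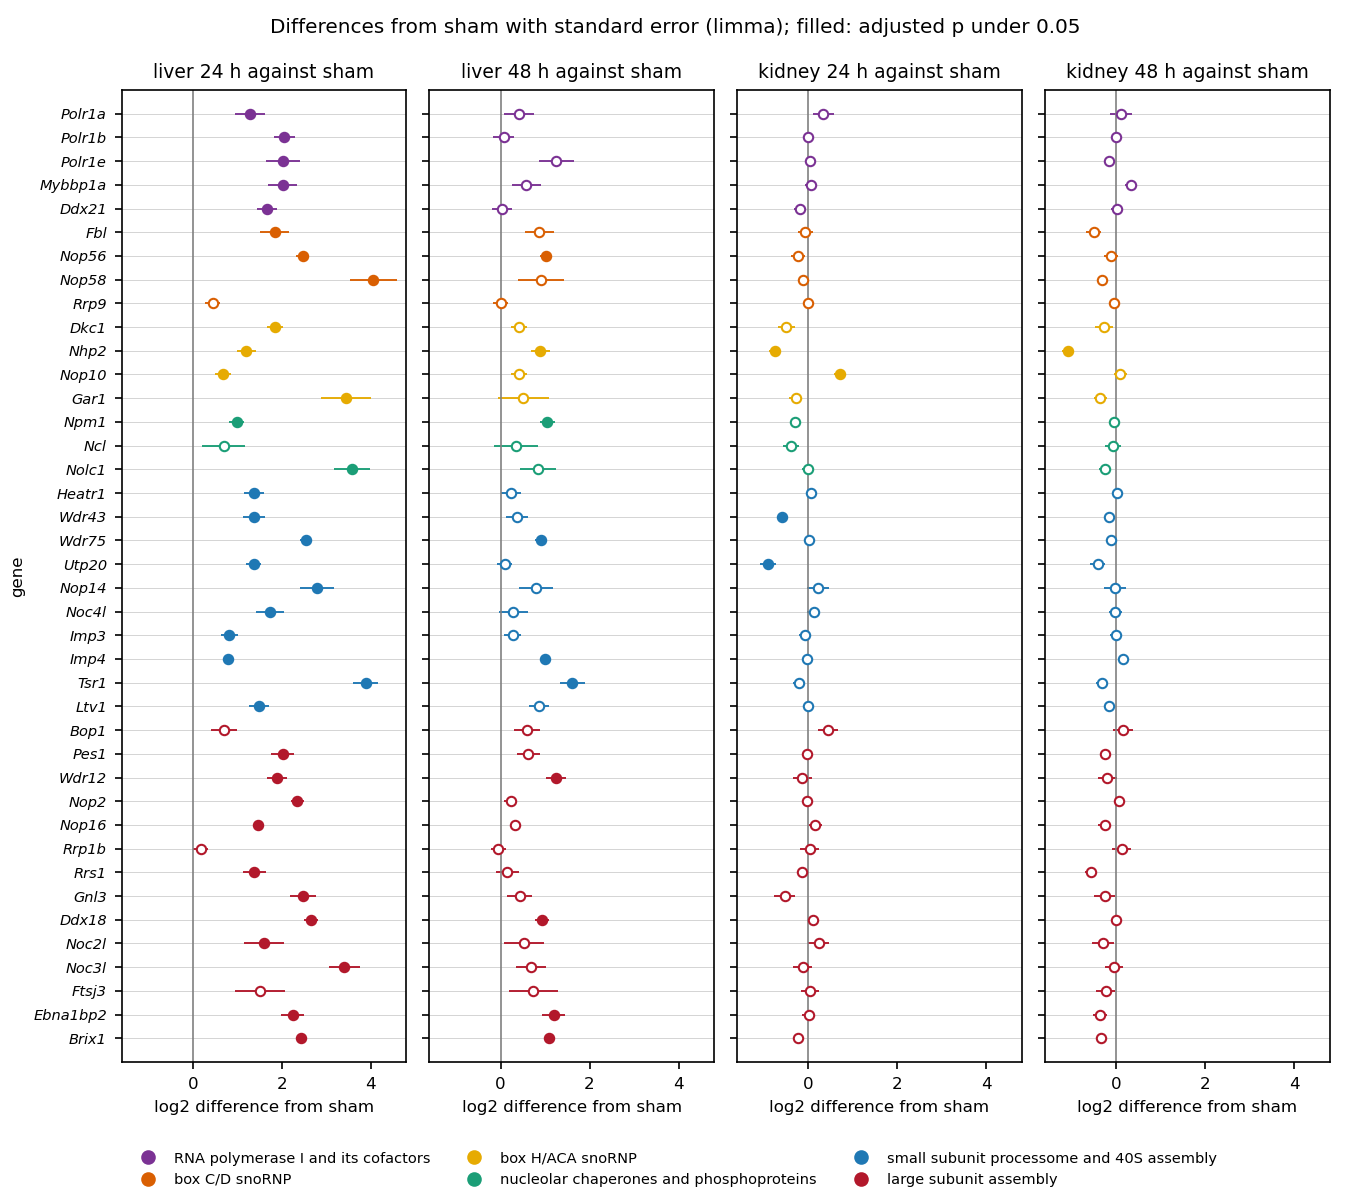
Difference from sham on the log2 scale (x axis, with the standard error from limma) for each factor (y axis) in liver and kidney at 24 h and 48 h; filled points passed an adjusted p of 0.05. All points for liver at 24 h lie right of 0 and 35 are filled, 10 are filled in liver at 48 h, and 4 and 1 are filled in kidney.

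In liver at 48 h, 10 of the 40 factors were higher than sham and none was lower, whereas 6.24% of all genes tested were higher. The 10 were Nop56, Nhp2, Npm1, Wdr75, Imp4, Tsr1, Wdr12, Ddx18, Ebna1bp2 and Brix1, and all 10 had also risen at 24 h. The median difference of the 40 factors was 0.58, against 0.03 over all genes. All 48 h livers exceeded all sham livers for 16 factors and for 17.7% of all genes. Rank product analysis called none of the 40, against 2.35% of all genes; limma at an unadjusted p of 0.05 gave 15, all higher, against 15.7% of all genes higher at that threshold.

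Tsr1 had the largest 48 h difference, 1.61 (SE 0.28, limma adjusted p = 0.0165, 3.06-fold), and Brix1 the smallest p, 1.09 (SE 0.10, adjusted p = 0.00365, 2.12-fold). By the other probe set of each gene the 48 h differences were smaller, 0.85 for Tsr1 and 0.25 for Brix1. That Brix1 set overlapped sham at 48 h. Nhp2 passed narrowly (0.90, SE 0.22, adjusted p = 0.0437). The calls of Nop56, Npm1, Wdr75, Imp4 and Brix1 held in every fit that left out 1 array, and the other five did not. Without array C of the 48 h livers, 21 factors were higher, 8.40% of all genes were, and the median of the 40 was 0.93. Of the 10, 9 were among the 21, and Nhp2 was not (0.76, limma adjusted p = 0.0812). The 12 gained included Fbl (1.28), Nolc1 (1.33), Gar1 (1.24), Ncl (0.97) and Ftsj3 (1.46). Without sham B 5 were called, and without 48 h A 6. The part of RNA quality in the lower signals of array C was not tested.

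Between 24 h and 48 h in liver, 24 of the 40 factors fell and none rose, whereas 13.1% of all genes fell, and the median difference of the 40 was −1.18. All 24 had risen at 24 h, and 6 of them were still above sham at 48 h: Nop56, Wdr75, Tsr1, Ddx18, Ebna1bp2 and Brix1. These comparisons share arrays and are not independent. Nop58 fell by 3.15 on the log2 scale, Gar1 by 2.93, Nolc1 by 2.73, Noc3l by 2.73 and Tsr1 by 2.28. Small subunit genes fell for 7 of 10, large subunit genes for 9 of 14 and polymerase I genes for 3 of 5. Npm1 (0.06) and Imp4 (0.21) had no negative difference and were not called.

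Without array C of the 48 h livers, 26 of the 40 factors were lower at 48 h than at 24 h, against 13.4% of all genes, with a median of −1.08. The 26 held 23 of the 24; Wdr43 was no longer called (−0.93, limma adjusted p = 0.0550), and Fbl (−0.56), Imp3 (−0.70) and Noc2l (−0.51) were. The order of the largest falls changed. Nop58 then fell by 2.67, Noc3l by 2.51, Gnl3 by 2.38, Nolc1 by 2.23, Gar1 by 2.19 and Tsr1 by 2.03, so the Gar1 fall was smaller by more than 1.5 times on the linear scale. Ncl (0.28) and Bop1 (0.20) joined Npm1 (0.25) and Imp4 (0.17) in having positive differences, and none of these 4 was called. Large subunit genes then fell for 10 of 14 and box C/D genes for 3 of 4, against 2 of 4 with it, and the count was the same for the other roles.

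**Figure D3:**
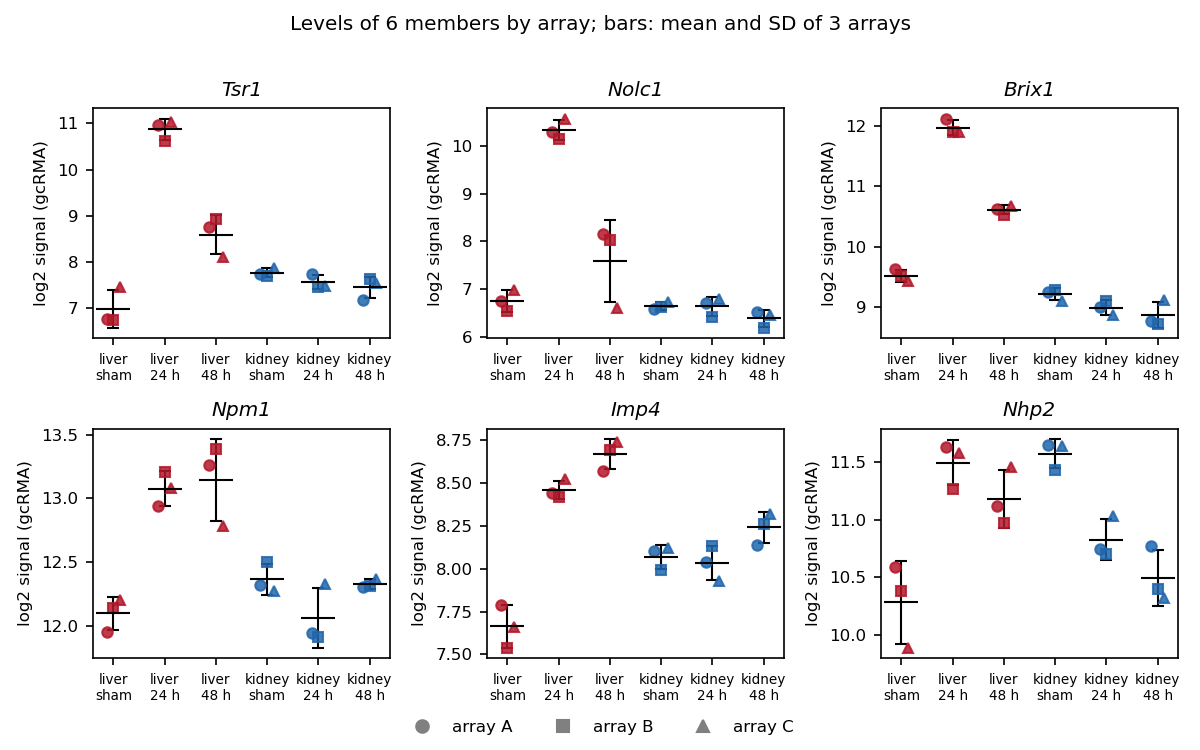
Log2 signal of Tsr1, Nolc1, Brix1, Npm1, Imp4 and Nhp2 in each array of the 6 groups (x axis), with the mean and SD of 3 arrays. Tsr1, Nolc1 and Brix1 peak in liver at 24 h, Npm1 and Imp4 stay high in liver at 48 h, and Nhp2 is lower in the treated kidneys than in sham kidneys; the y axes do not start at 0.

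In kidney at 24 h, 4 of the 40 factors were called, Nop10 higher and Nhp2, Wdr43 and Utp20 lower, against 5.31% of all genes in either direction, and the median of the 40 was −0.02. The Nhp2 signal was 11.65, 11.43 and 11.64 in sham kidneys, 10.75, 10.70 and 11.03 at 24 h and 10.77, 10.40 and 10.32 at 48 h. All treated kidneys lay below all sham kidneys, opposite to the liver. The difference was −0.75 at 24 h (SE 0.14, limma adjusted p = 0.0362) and −1.08 at 48 h (SE 0.14, adjusted p = 0.0234).

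Utp20 read 9.11, 9.53 and 9.59 in sham kidneys, 8.67, 8.35 and 8.48 at 24 h and 8.96, 8.76 and 9.27 at 48 h, with a 24 h difference of −0.91 (SE 0.18, limma adjusted p = 0.0376). For Wdr43 the sham kidneys read 8.77, 8.83 and 8.64 and the 24 h kidneys 8.19, 8.06 and 8.20 (−0.60, SE 0.09, limma adjusted p = 0.0223). Both genes were below all sham kidneys at 24 h, whereas at 48 h Utp20 and Wdr43 overlapped sham. Nop10 read 12.07, 11.92 and 12.07 in sham and 12.92, 12.90 and 12.38 at 24 h (0.71, SE 0.14, limma adjusted p = 0.0390), again without overlap. None of the 4 calls held in all 9 fits that each left out 1 kidney: Wdr43 was called in 6, Nhp2 in 3, and Nop10 and Utp20 in 1 each. Without sham A, sham B or 24 h B none of the 40 was called. Without 24 h C the 4 called factors were Nop10, Nhp2, Wdr43 and Npm1 (−0.44, limma adjusted p = 0.0363), while Utp20 was not called (−0.90, adjusted p = 0.0685).

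Nhp2 was the only one of the 40 called in kidney at 48 h, against 2.69% of all genes, and the call was lost in 5 of the fits that leave out 1 array, those without a sham kidney (any of 3) and those without 48 h B or C. The differences of the other factors at 48 h ran from −0.57 (Rrs1, limma adjusted p = 0.0581) to 0.34 (Mybbp1a, adjusted p = 0.237). Between 24 h and 48 h in kidney limma called none of the 40, against 1.61% of all genes. At an unadjusted p under 0.05 there were 9 of the 40 and 18.3% of all genes. Proliferation markers averaged 8.93 in kidney 48 h A against 6.66 and 6.18 in B and C, and 4.85 to 6.82 in sham. The 7 distal nephron markers averaged 11.19 to 11.71 in sham kidneys, 12.12 to 12.54 at 24 h and 11.78 to 12.13 at 48 h. Their mean was above sham in every treated kidney, and 1 of the 7 was called higher at 24 h, against 2.21% of all genes. The part of either list in the kidney values was not tested.

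Whether the response differed between tissues was tested directly, as the kidney change minus the liver change in 1 fit of all 18 arrays. At 24 h the kidney change was lower for 32 of the 40 factors and higher for none, against 16.6% lower among all genes, with a median of −1.96. The largest gaps were those of Nop58 (−4.17), Tsr1 (−4.09) and Gar1 (−3.72). Not called were Polr1a, Rrp9, Nop10, Ncl, Bop1, Rrp1b, Noc2l and Ftsj3. For Nop10 the difference of changes was 0.04 (95% interval −0.47 to 0.54). At 48 h the kidney change was lower for 13 of the 40, against 8.48% of all genes, with a median of −0.77; without array C of liver at 48 h it was lower for 22, against 11.1% of all genes.

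Sham kidney and sham liver differed for 14 of the 40 factors, 5 higher and 9 lower in kidney, whereas 47.8% of all genes differed. Higher in kidney were Utp20 (2.28), Nhp2 (1.28), Gar1 (1.13), Tsr1 (0.78) and Imp4 (0.41), and lower were genes such as Heatr1 (−1.32) and Polr1a (−0.91). The split depended on the scaling: it was 2 higher and 15 lower after quantile normalization and 2 higher and 17 lower after centring on the median. Array medians over the 40 factors overlapped between sham livers and sham kidneys (7.81 to 7.91 in kidney).

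Other genes of the same machinery were counted in liver at 24 h, where 17.9% of all genes tested rose and 15.0% fell. Of 42 other small subunit and 40S factors, 30 rose and 1 (Utp6) fell, with a median of 1.41. Krr1 (2.21, SE 0.12, limma adjusted p = 8.43e-05), Mphosph10 (2.15) and Rrp36 (1.73) had the smallest p-values. Of 44 other large subunit factors, 33 rose and 1 (Wdr18) fell, with a median of 1.95, led by Nifk (3.22), Rpf2 (2.73) and Gnl2 (2.26). Of 13 other polymerase I subunits and initiation factors 8 rose and none fell, led by Polr1c (1.27, a subunit shared with polymerase III), Taf1d (3.36) and Rrn3 (1.55, the factor that makes polymerase I competent to start).

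Of 8 snoRNP assembly chaperones 7 rose and Pih1d1 fell (−1.16). Nufip1, which recruits box C/D proteins, rose by 3.05 (SE 0.14, limma adjusted p = 5.49e-05), Naf1, which precedes Gar1 in box H/ACA assembly, by 2.00, and the ATPase Ruvbl1 by 1.90. Of 13 RNA exosome genes, whose products trim precursor RNA, 8 rose, among them Exosc1 (2.45) and Dis3 (1.91), and Exosc5 fell by 1.43. Exosc5 was instead higher than sham at 48 h (0.67, SE 0.15, limma adjusted p = 0.0371). RNA polymerase III genes rose for 3 of 11, against 17.9% of all genes, with a median of 0.12.

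**Figure D4:**
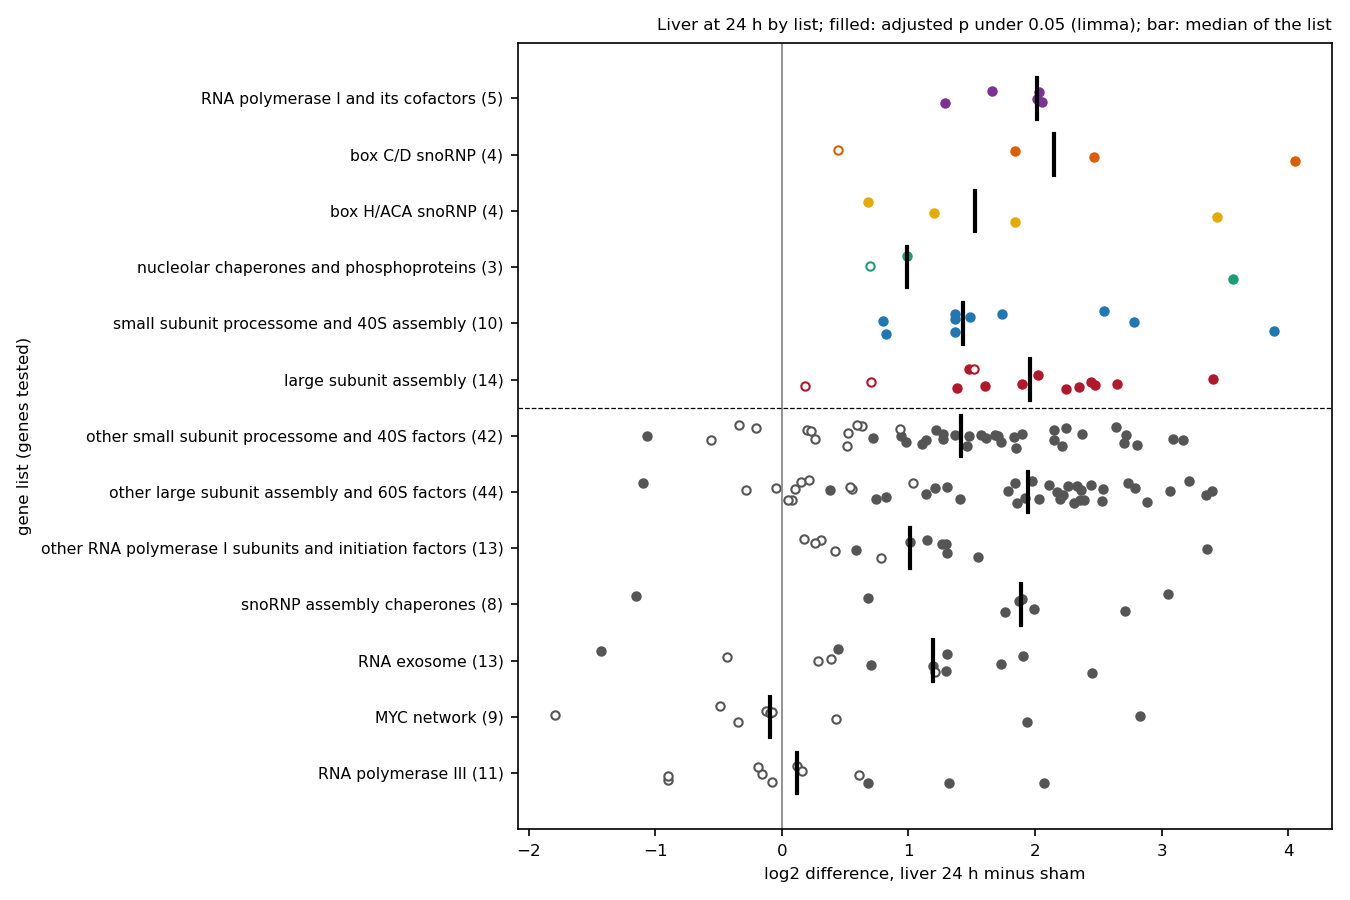
Log2 difference between liver at 24 h and sham for each tested gene (points) by list, the 6 roles of the factors above the dashed line and the 7 other lists below it; filled points passed an adjusted p of 0.05 and bars are list medians. The medians of the roles run from 0.99 to 2.15, while those of the MYC network (−0.09) and RNA polymerase III (0.12) lie near 0.

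In the MYC network 2 of 9 tested genes rose at 24 h and none fell, a share near the 17.9% of all genes that rose. Myc, the transcription factor known to drive ribosome production, read 4.83, 4.96 and 6.64 in sham livers, 8.21, 8.53 and 8.18 at 24 h and 5.84, 9.05 and 6.63 at 48 h. The 24 h livers did not overlap sham, while the 48 h livers spanned both. Its 24 h difference was 2.83 (SE 0.85, limma adjusted p = 0.0404), and at 48 h it was 1.70 (SE 0.85, adjusted p = 0.269). Mga, a partner of MAX that competes with MYC, rose by 1.93 at 24 h.

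Markers of other cells changed in the same livers, where 17.9% of all genes rose at 24 h. The mean log2 signal of 10 macrophage markers was 8.02 to 9.10 in sham, 9.80 to 10.23 at 24 h and 9.46 to 9.84 at 48 h, and 6 of the 10 rose at 24 h. Of 10 endothelial markers 5 rose at 24 h, with means of 6.18 to 6.28 in sham, 6.96 to 8.02 at 24 h and 6.65 to 7.06 at 48 h. Of 8 stellate and fibroblast markers 3 rose (7.01 to 7.74 in sham, 7.90 to 8.31 at 24 h), with Des at the floor.

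Proliferation markers rose for 3 of 8 tested at 24 h, against 17.9% of all genes. Their means were 4.59 to 5.18 in sham, 5.38 to 5.53 at 24 h and 5.70 to 5.90 at 48 h. The 9 hepatocyte markers averaged 13.73 to 14.07 in sham, 13.40 to 13.55 at 24 h and 13.25 to 13.63 at 48 h, below sham in every treated liver. Of the 9, 1 fell at 24 h and 2 at 48 h, against 15.0% and 3.94% of all genes. Neutrophil and lymphocyte markers stayed low (2.70 to 3.17 in all livers), with 4 of 8 and 4 of 7 at the floor. In whole tissue, fewer cells of a type and less RNA per cell cannot be told apart, and the part of cell makeup in the rises of the ribosome factors was not tested.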

How the data were processed

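The authors deposited log2 expression values for 45101 probe sets in 18 arrays; per the series' design text and the submitters' processing notes they were made with the R packages affy and GCRMA, whose versions are not given in the sources used here. gcRMA corrects background by probe sequence and normalizes arrays to each other, so low signals gather at a floor (2.21 here), shifts shared by all genes are removed and folds of dim probes can be compressed. Probe sets were named from the platform annotation: 34945 had 1 gene, 932 several and 9160 none, beside 64 control sets.

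Genes above the array median in at least 3 of 9 arrays of a tissue (12071 in liver, 12003 in kidney; 12412 over 18 arrays) were tested with limma 3.58.1 in R 4.3.3 (lmFit, eBayes with trend) on the 9 arrays of the tissue, or on all 18 between tissues, with Benjamini-Hochberg adjustment over all genes tested. The study's stated test, rank product, was run as an alternative with 100 permutations that shuffled genes within arrays; this null was chosen after seeing the data, in place of one that treated pairs sharing an array as independent and called more genes. Promoters were searched with Python 3.11.15. Scripts were tested on simulated data. The members, gene lists and tests were chosen with earlier results of these data known. The E-box was listed for search at the outset, and the GC box, ETS core and the leaving out of recurring readings were added after seeing the data.

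Signals in every array are given for the members with the largest and smallest called difference and the highest level per role, those not called in liver at 24 h, those called in kidney, and those called against the majority direction. Of other pathway lists, up to 3 called genes with the smallest p are named, and Myc; genes that fell were named after their values were seen.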

Additional observations from a re-analysis of the deposited data

Results flagged for a closer look

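The response to GalN differed between tissues by a test of the difference itself (limma, kidney change minus liver change, 18 arrays). At 24 h it was lower in kidney for 32 of the 40 factors, against 16.6% of all genes, and at 48 h for 13, against 8.48%. Among the single factors called in kidney, the difference of changes at 24 h was −1.95 for Nhp2 (SE 0.27, adjusted p = 0.00011), −1.97 for Wdr43 (SE 0.27, adjusted p = 0.000106) and −2.27 for Utp20 (SE 0.25), and at 48 h it was −1.97 for Nhp2 (SE 0.27, adjusted p = 0.000518). All 3 genes rose in liver at 24 h and were lower than sham in kidney at that time, without overlap between treated and sham arrays in either tissue. The kidney calls did not hold when single arrays were left out, while the count of 32 was 32 to 35 over those fits.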

How the results depend on the processing

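The 35 calls in liver at 24 h stayed between 32 and 38 of the 40 factors under every limma alternative run, and 31 of 34 without recurring readings; rank product gave 12. The 24 calls between 24 h and 48 h in liver ranged from 20 to 32.

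For liver at 48 h (10 calls) array weights gave 27, the replicate block by array letter 6, the 6 compared arrays alone 5 and rank product 0, and leaving out 1 array gave 5 to 21. In kidney at 24 h (4 calls) no filter gave 1, and the replicate block, the 6 compared arrays alone and rank product each gave 0, with 0 to 4 when 1 array was left out. In kidney at 48 h (1 call) the filter at percentile 60, quantile normalization and median centring each gave 2, array weights 5, the replicate block 0 and the 6 compared arrays 3, with 0 to 3 when 1 array was left out. Between 24 h and 48 h in kidney (0 calls) quantile normalization and median centring each gave 1, with 0 to 1 when 1 array was left out. The kidney minus liver count at 24 h was 32 to 36 throughout; at 48 h (13) array weights gave 24, and leaving out 1 array 11 to 22. Sham kidney against sham liver (14) gave 25 with array weights and 10 to 19 without 1 array. Shares over all genes are given above for only some of these settings, so a changed count need not be particular to the factors. The cause of these changes in count was not tested.

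Whether a letter marks the same mouse in liver and kidney is not stated in the sources. Deviations of same-lettered arrays correlated at −0.12 to 0.23 within tissues and −0.06 to 0.25 between them. Arrays with different letters were not compared in this way, so these values cannot tell whether letters pair the samples. The replicate block left 33 calls in liver at 24 h, and taking the same letter and time as 1 mouse left 32 and 11 in the kidney minus liver comparison at 24 h and 48 h. No called difference of a named factor reversed its sign in the alternatives run.

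Precision is limited by 3 arrays a group, and no kidney call of a factor held in every fit that left out 1 array.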
